A study of Mus musculus with 6 samples.

Results

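The genes described here are 37 genes of the ATF4 amino acid response, among them 12 cytosolic tRNA synthetases, followed through RAW264.7 cells under osteoclast-inducing conditions with and without neobavaisoflavone (NBIF). They were chosen by symbol, by a rule that uses no measured value but with earlier results of these data known, and all 37 were found among the 20938 genes of the deposited table. The RAW264.7 line consists of mouse cells of macrophage character that fuse into osteoclasts, the cells that resorb bone, when induced, and the labels give macrophage as its cell type and bone marrow as its tissue. One group of 3 samples received the solvent DMSO and the other group of 3 samples received NBIF, a plant isoflavone, at 8 µM. Both groups were put under osteoclast-inducing conditions, and the comparison asks what the compound changes while osteoclasts form. For the inducing agent and the length of treatment the sources used here give nothing, and no genotype other than that of this single cell line is named. Expression was measured by RNA sequencing and is given as FPKM, a fragment count corrected for transcript length and library size.

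Most members of the amino acid response did not pass the test, and the changes that did were small and went in both directions. Of the 36 members with a mean of at least 1 FPKM, 7 were higher with NBIF (Gpt2, Cth, Phgdh, Atf5, Slc7a5, Wars and Xpot) and 2 were lower (Slc1a5 and Atf4) at a limma adjusted p under 0.05. These are 19.4% and 5.56% of the tested members, where 10.5% of all 9936 genes tested were higher and 8.08% were lower. Of all tested genes, 18.6% changed in either direction, as did 9 of the 36 members. After median-ratio scaling, the counts of members were 3 higher and 3 lower, and 41.3% of all called genes were higher in place of 56.6%. The largest rise was 1.29-fold in mean FPKM (Gpt2), and the largest fall was to 0.809 of the DMSO mean (Slc1a5). The median log2 change of the tested members was 0.051, beside 0.044 for all genes tested. Because whole cultures were sampled, fewer cells of a type and less RNA per cell cannot be told apart in any of these values.

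ATF4 is a transcription factor made when the initiation factor eIF2 is phosphorylated, an event that slows most protein synthesis while translation of the Atf4 mRNA goes up. The kinase GCN2 does this when uncharged tRNAs build up, PERK when unfolded proteins load the endoplasmic reticulum, PKR on double-stranded RNA and HRI when heme is short. ATF4 pairs with C/EBP proteins at composite DNA elements and raises genes for amino acid uptake, amino acid synthesis and tRNA charging, and in osteoclast precursors it is known for a part in the response to the differentiation factor RANKL. Since ATF4 is set largely by translation, the level of its mRNA alone does not measure its activity.

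The composite element is shown here because it is the element that ATF4 dimers are known to bind. No sequence was searched to choose the members, but they were chosen as ATF4 response genes, which may be known through this element. A higher share among them than among all genes can therefore follow from the choice. The letters TGATGNAAN were searched on both strands in RefSeq promoter windows (GRCm38.p6) that reach from 250 bases before a transcript start to 50 after it. Windows were at hand for 29 of the 37 members, and 10 of these 29 genes (34.5%) held the letters, beside 4.50% of 27025 genes with a window and 2.71% of the 8082 tested genes with one. The 11 matches lay between positions -201 and 22 from the start. Of these, 10 are shown, each written 5′ to 3′ on the strand that reads the element, with the element in capitals.
Asns (chr6:7693214-7693242, minus strand): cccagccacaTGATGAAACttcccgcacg
Pycr1 (chr11:120643833-120643861, minus strand): gccctgtgtaTGATGCAATgcacaaggct
Trib3 (chr2:152344029-152344057, plus strand): cccgcccggcTGATGTAAAcctgagctaa
Nupr1 (chr7:126625563-126625591, plus strand): aagccctgtcTGATGCAATctggcccttt
Vldlr (chr19:27216809-27216837, minus strand): ctaggagcgcTGATGCAACtattgctgct
Aars (chr8:111033840-111033868, minus strand): cagagcgctcTGATGAAAAgtgacccgct
Gars (chr6:55037960-55037988, minus strand): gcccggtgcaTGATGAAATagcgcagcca
Iars (chr13:49682126-49682154, minus strand): cgtctggaggTGATGCAATactgacagtg
Tars (chr15:11399656-11399684, plus strand): gctaaccagcTGATGCAACgggactcctg
Yars (chr4:129189896-129189924, plus strand): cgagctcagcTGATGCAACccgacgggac
The letters were in windows of synthetase genes (Aars, Gars, Iars, Tars, Yars), of the asparagine and proline enzyme genes Asns and Pycr1, and of Trib3, Nupr1 and Vldlr. Of these 10 genes 9 were tested and 0 passed the test, with 18.6% of all tested genes called. At an unadjusted p under 0.05, 3 of the 9 were higher (Trib3, Asns and Iars), as were 20.4% of all genes tested. The 5 members that changed and had a window (Atf4, Atf5, Phgdh, Gpt2 and Xpot) did not hold the letters in it, which says only that these letters are not in this stretch. Windows of Cth, Eif4ebp1, Slc7a5, Slc1a5, Cars, Lars, Nars and Wars were not analysed here.

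The total number of reads cannot be read from FPKM. For genes under 0.05 FPKM, the most common ratio to DMSO 1 put each other library between 0.887 and 1.09 of its depth. That ratio was sought only in a narrow range around equal depth, so a larger difference in depth could not have been seen. Pairs of samples had correlations of logged values from 0.986 to 0.989 across groups and from 0.993 to 0.996 inside them. Separate cultures are not named in the labels, so what the p-values weigh is the spread between samples that may be technical repeats. Of 8 macrophage markers all 8 were lower with NBIF (summed level 2317 to 2491 FPKM in DMSO, 1401 to 1459 in NBIF), and of 7 tested osteoclast markers 4 were lower and 0 higher (7443 to 8059 and 5705 to 6524 FPKM, over 8 listed). Calcr, a late osteoclast marker, was at 0.306 FPKM at most. Markers of stroma or osteoblasts, T cells, B cells, neutrophils and erythroid cells were each at most 0.902 FPKM in any sample. The part of the marker shift in the members' values was not tested.

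The members were abundant in these cells. The median tested member stood at the 84.9th percentile of level among all genes tested, and the 12 synthetases at the 92.4th. Asns, the asparagine synthetase gene and a classic ATF4 target, was the highest member in both groups, at the 99.0th percentile of mean level over all 6 samples. Asns had 666 ± 21.5 FPKM in DMSO (mean ± SD, n = 3), far above Nars, the next in DMSO, at 242 ± 12.7 FPKM. Nars and Aars, with 238 ± 6.09 FPKM, did not differ beyond their spread in DMSO, and Gpt2 followed at 221 ± 7.20 FPKM. In NBIF the order was Asns, Gpt2, Nars and Aars, with Gpt2 at 285 ± 3.22 FPKM. Ddit4, which encodes the mTORC1 inhibitor REDD1, was the lowest tested member at 3.48 ± 0.269 FPKM in DMSO. Vldlr, a lipoprotein receptor gene, was listed at 0 in 4 libraries, at 0.025 FPKM in DMSO 3 and at 0.060 FPKM in NBIF 3, and was not tested.

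**Figure D1:**
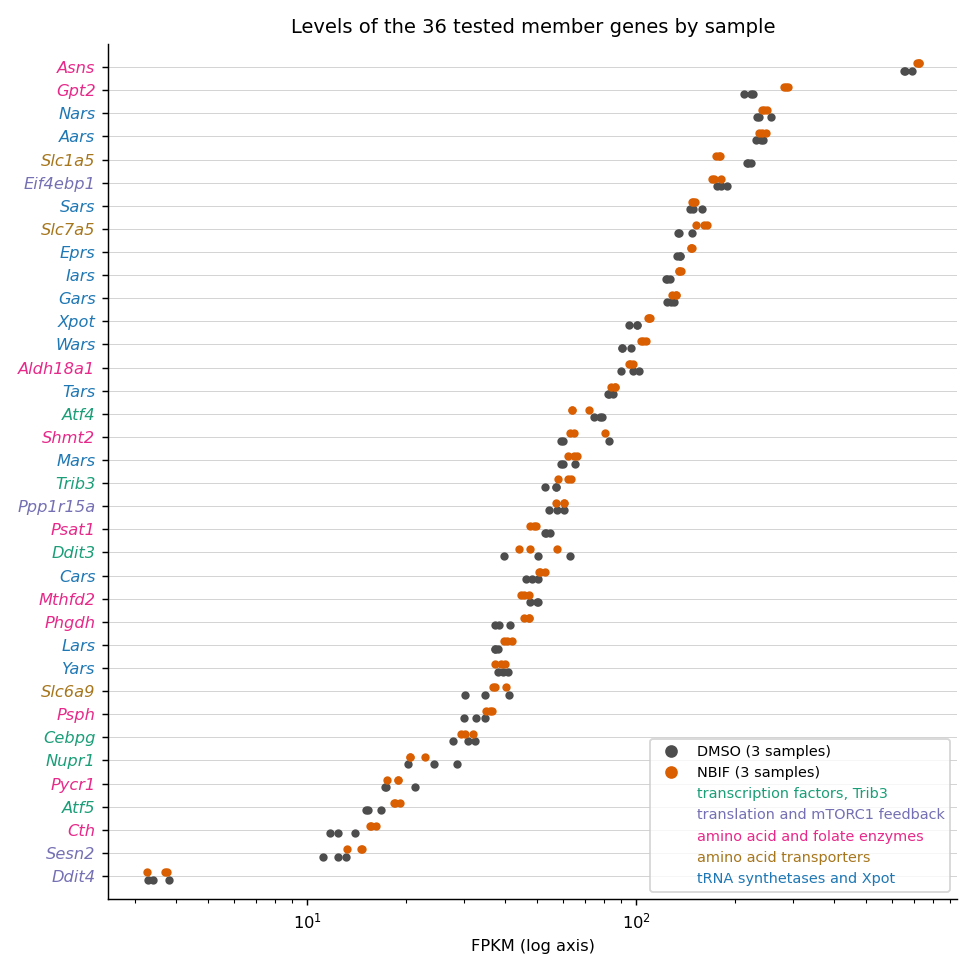
FPKM (log axis) of the 36 tested members in each of the 6 samples, ordered by mean level, with gene names coloured by role. Members run from Ddit4 at about 3.48 FPKM to Asns at 650.2 FPKM or more, and for most genes the DMSO and NBIF points lie side by side.

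Among the transcription factors and their partners, there was 1 fall and 1 rise among 6 genes, and the other 4 did not pass. Beside this, 8.08% of all genes tested fell and 10.5% rose. Atf4 had 77.4, 78.9 and 74.5 FPKM in the DMSO samples and 71.7, 64.0 and 63.6 in the NBIF samples. All 3 NBIF values lay under the lowest DMSO value, and the log2 change was -0.21 ± 0.058 (SE, limma adjusted p = 0.0378). Groups did not overlap for 39.0% of all genes tested and for 19 of the 36 tested members, 15 of them higher (24.6% of all genes) and 4 lower (14.3%). Atf5, an ATF4 relative that is itself controlled at translation, had 15.3, 15.1 and 16.8 FPKM in DMSO and 19.2, 18.5 and 18.4 in NBIF. It was higher in each NBIF sample, by 0.24 ± 0.060 on the log2 scale (adjusted p = 0.0277). Exons of Atf5 share bases with Il4i1 and Nup62 on the other strand and the strand setting is not given, so these neighbours may affect its value. Nup62 itself had a log2 change of -0.026 (limma adjusted p = 0.802), and Il4i1 was not among the genes tested.

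Ddit3, which encodes the stress factor CHOP, varied more within a group than between groups. Its values were 39.6, 62.9 and 50.4 FPKM in DMSO and 44.2, 57.4 and 47.6 in NBIF, with the second replicate the highest of each group. The log2 change was -0.018 with a 95% interval from -0.37 to 0.34 (adjusted p = 0.951), one of the widest intervals among the members. Ddit3 also shares exon bases with Mars on the opposite strand. In all, 11 members share exon bases with another gene, and Atf5 is the only 1 of them that passed, where 18.6% of all genes tested did. Besides Atf5, Ddit3 and Mars, the members sharing exon bases are Cebpg, Ppp1r15a, Psph, Shmt2, Slc6a9, Aars, Cars and Yars. For Cebpg and Aars a gene on the same strand is among those shared with. Trib3, a pseudokinase gene raised by ATF4 and CHOP that restrains both, had 52.8, 57.2 and 57.1 FPKM in DMSO and 62.1, 63.5 and 57.8 in NBIF. Its groups did not overlap, but the log2 change of 0.13 missed the threshold (adjusted p = 0.138). Cebpg, a C/EBP partner of ATF4, had 30.3 ± 2.36 FPKM in DMSO against 30.5 ± 1.30 in NBIF (adjusted p = 0.911). Nupr1, a stress-induced cofactor gene, had 24.3 ± 4.08 and 21.3 ± 1.29 FPKM, and its groups overlapped (adjusted p = 0.304).

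The 4 genes that feed back on translation and mTORC1 did not pass the test, and 1 of the 4 had an unadjusted p under 0.05, where 33.3% of all genes tested did. Ppp1r15a (GADD34), which brings a phosphatase to eIF2, had 57.4 ± 2.89 FPKM in DMSO and 59.3 ± 2.02 in NBIF, with a log2 change of 0.047 and a 95% interval from -0.076 to 0.17. Sesn2, a leucine sensor that holds back mTORC1, had 12.2 ± 1.01 and 14.1 ± 0.847 FPKM. Its NBIF values were all above its DMSO values, at a log2 change of 0.20 (unadjusted p = 0.0292, adjusted p = 0.106). Eif4ebp1, whose product blocks the cap-binding factor eIF4E, had 182 ± 6.27 and 175 ± 5.87 FPKM (adjusted p = 0.385). Ddit4 had a log2 change of 0.026 (adjusted p = 0.852).

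Of 10 enzyme genes of amino acid and folate metabolism, 3 rose, 0 fell and 7 did not pass, where 10.5% of all genes tested rose and 8.08% fell. Gpt2, the mitochondrial alanine transaminase gene (chromosome 8, 85492576 to 85527560 in GRCm38), gave the largest change of any member. It had 213, 227 and 224 FPKM in DMSO and 286, 289 and 282 in NBIF. All NBIF values lay far above the highest DMSO value, and the log2 change was 0.37 ± 0.042 (adjusted p = 0.000739). Cth, the cystathionine gamma-lyase gene that makes cysteine (chromosome 3, 157894248 to 157925077), had 12.4, 14.0 and 11.7 FPKM in DMSO and 15.6, 15.5 and 16.2 in NBIF. All NBIF samples were above all DMSO samples, by 0.29 ± 0.070 on the log2 scale (adjusted p = 0.0225).

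Of the serine synthesis genes, 1 of 3 passed the test, where 18.6% of all genes tested did. Phgdh, the first enzyme of the route (chromosome 3, 98313170 to 98339990), had 37.2, 38.2 and 41.4 FPKM in DMSO and 47.1, 47.2 and 45.7 in NBIF. The groups did not overlap and the log2 change was 0.26 ± 0.054 (adjusted p = 0.0134). Psat1, the next enzyme, had 54.9, 53.1 and 52.9 FPKM in DMSO and 47.5, 49.8 and 49.1 in NBIF. Here all NBIF values were the lower ones, and the log2 change of -0.13 missed the threshold (adjusted p = 0.0784; 0.0342 after median-ratio scaling, at -0.17). Under the other 15 of 16 alternatives Psat1 did not pass. Psph, the last enzyme, had 32.4 ± 2.44 FPKM in DMSO and 35.8 ± 0.758 in NBIF, a log2 change of 0.14 (adjusted p = 0.153).

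Shmt2 and Mthfd2, genes of mitochondrial folate enzymes that handle the serine carbon, did not pass the test. Shmt2 had 59.9, 59.0 and 82.4 FPKM in DMSO and 64.5, 63.1 and 80.4 in NBIF, the third replicate being the highest of each group. Its log2 change of 0.055 had a 95% interval from -0.26 to 0.37, and it shares exon bases with Ndufa4l2 on the other strand. Mthfd2 had 49.4 ± 1.44 and 45.8 ± 1.26 FPKM, with every NBIF value below every DMSO value (log2 change of -0.10, adjusted p = 0.173). Asns had 657, 690.4 and 650.2 FPKM in DMSO and 723, 715 and 723 in NBIF. The NBIF values were the higher ones, by 0.11 ± 0.039 on the log2 scale, and missed the threshold (adjusted p = 0.0775). The adjusted p was 0.0475 when samples were rescaled to the same FPKM sum and 0.00622 after quantile normalization. Under the other 14 of 16 alternatives Asns did not pass, with an adjusted p of 0.252 after median-ratio scaling. The proline synthesis genes Aldh18a1 and Pycr1 had log2 changes of -0.0029 and -0.0098, each with overlapping groups.

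Of 3 tested amino acid transporter genes, 1 fell, 1 rose and 1 did not pass, where 8.08% of all genes tested fell and 10.5% rose. Slc1a5, the glutamine importer ASCT2 (chromosome 7, 16781340 to 16798274), had 217, 219 and 223 FPKM in DMSO and 175, 179 and 179 in NBIF. The samples of each group lay close together and the groups far apart, with a log2 change of -0.30 ± 0.039 (adjusted p = 0.00143). Slc7a5, the leucine importer LAT1 that exports glutamine in exchange (chromosome 8, 121881150 to 121907694), had 134, 135 and 147 FPKM in DMSO and 164, 152 and 160.3 in NBIF. All NBIF values were the higher ones, by 0.20 ± 0.053 on the log2 scale (adjusted p = 0.0354). Slc6a9, the glycine importer GLYT1, had 35.4 ± 5.56 FPKM in DMSO and 38.1 ± 1.86 in NBIF with overlapping groups (adjusted p = 0.462). Slc3a2, the heavy chain that carries LAT1 to the surface, is not a member and had 67.5 ± 7.30 and 69.4 ± 8.87 FPKM, at 0.037 on the log2 scale (adjusted p = 0.835).

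**Figure D2:**
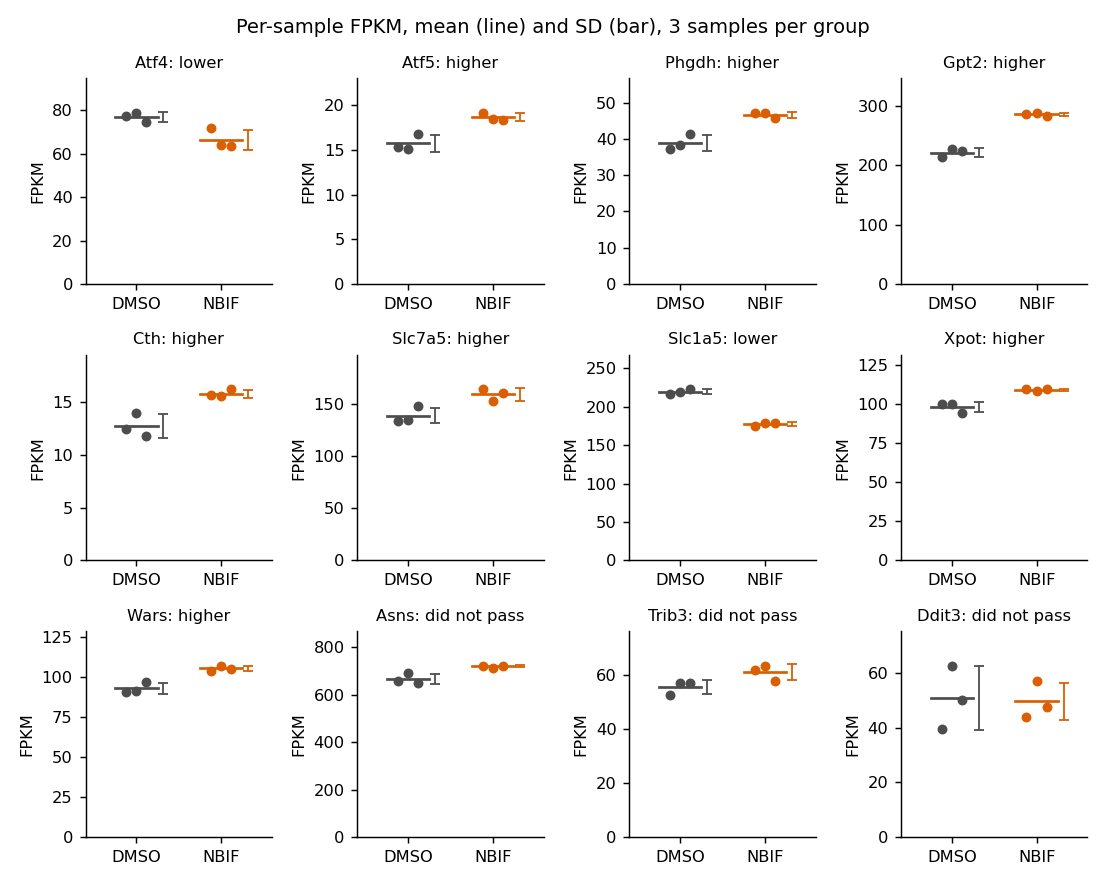
FPKM of the 9 members that passed the test and of Asns, Trib3 and Ddit3 in each sample, with the group mean (line) and SD (bar, n = 3 per group); all axes start at 0. The groups separate in each of the 9, by 1.29-fold at most, while the Ddit3 values of the groups overlap.

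The tRNA synthetases, which load amino acids onto their tRNAs, had log2 changes of at most 0.18. Of the 12, 1 rose (Wars), 0 fell and 11 did not pass, where 10.5% of all genes tested rose and 8.08% fell. At an unadjusted p under 0.05 there were 4 of the 12, a share equal to the 33.3% of all genes tested. Wars, the tryptophan enzyme gene (chromosome 12, 108860030 to 108894174), had 90.7, 90.8 and 96.4 FPKM in DMSO and 103, 107 and 105 in NBIF. The groups did not overlap and the log2 change was 0.18 ± 0.045 (adjusted p = 0.0264). Wars is also known as a gene that interferon gamma raises, apart from amino acid supply. Xpot, the exporter of tRNAs from the nucleus (chromosome 10, 121587380 to 121626332), had 100.4, 100.3 and 94.8 FPKM in DMSO and 109.8, 108 and 109.7 in NBIF. Its NBIF values were all higher, by 0.15 ± 0.044 on the log2 scale, just inside the threshold (adjusted p = 0.0464). The Wars call was lost under 8 and the Xpot call under 9 of 16 alternatives in the processing.

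Eprs, the bifunctional glutamate and proline enzyme gene, lay just outside the threshold. It had 136, 136 and 133 FPKM in DMSO and 147, 148 and 147 in NBIF, and its spread within groups was at percentile 0.091 of all genes tested. Its log2 change was 0.13 (adjusted p = 0.0539). It passed without a filter on low values (0.0373), among genes of at least 5 FPKM (0.0496) and with samples rescaled to the same sum (0.0363). Under the other 13 of 16 alternatives Eprs did not pass, with an adjusted p of 0.171 after median-ratio scaling. The isoleucine and leucine enzyme genes had non-overlapping groups as well, Iars with 125 ± 1.92 and 136 ± 1.58 FPKM (adjusted p = 0.0734) and Lars with 37.4 ± 0.480 and 40.6 ± 1.23 FPKM (adjusted p = 0.128). Cars, the cysteine enzyme gene, had 48.2 ± 2.07 and 51.5 ± 1.08 FPKM, again without overlap (adjusted p = 0.239).

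Groups did not overlap for 5 of the 12 synthetases (41.7%), all higher with NBIF. Among all genes tested this was 39.0%, with 24.6% higher and 14.3% lower. For the other 7 synthetases the groups overlapped. Aars (alanine) had 238 ± 6.09 FPKM in DMSO and 242 ± 5.26 in NBIF, Nars (asparagine) 242 ± 12.7 and 246 ± 4.37, Sars (serine) 151 ± 6.69 and 149 ± 1.28, and Gars (glycine) 127 ± 2.99 and 131 ± 2.25 FPKM. Tars (threonine) had 83.2 ± 1.62 and 85.3 ± 1.08 FPKM, Mars (methionine) 61.5 ± 3.07 and 64.5 ± 2.05, and Yars (tyrosine) 39.4 ± 1.31 and 38.7 ± 1.26 FPKM. Over all 12 synthetases the log2 changes ran from -0.025 to 0.18 with a median of 0.055, and their 95% intervals reached from -0.14 to 0.28. Each of the 11 that did not pass had an interval inside ±0.32 on the log2 scale, where 0.32 is a rise by 25%. Among all 27 members that did not pass, 22 had such an interval. The other 5 were Ddit3, Nupr1, Shmt2, Slc6a9 and Sesn2, the first 4 of which had the widest spread within groups of all members.

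**Figure D3:**
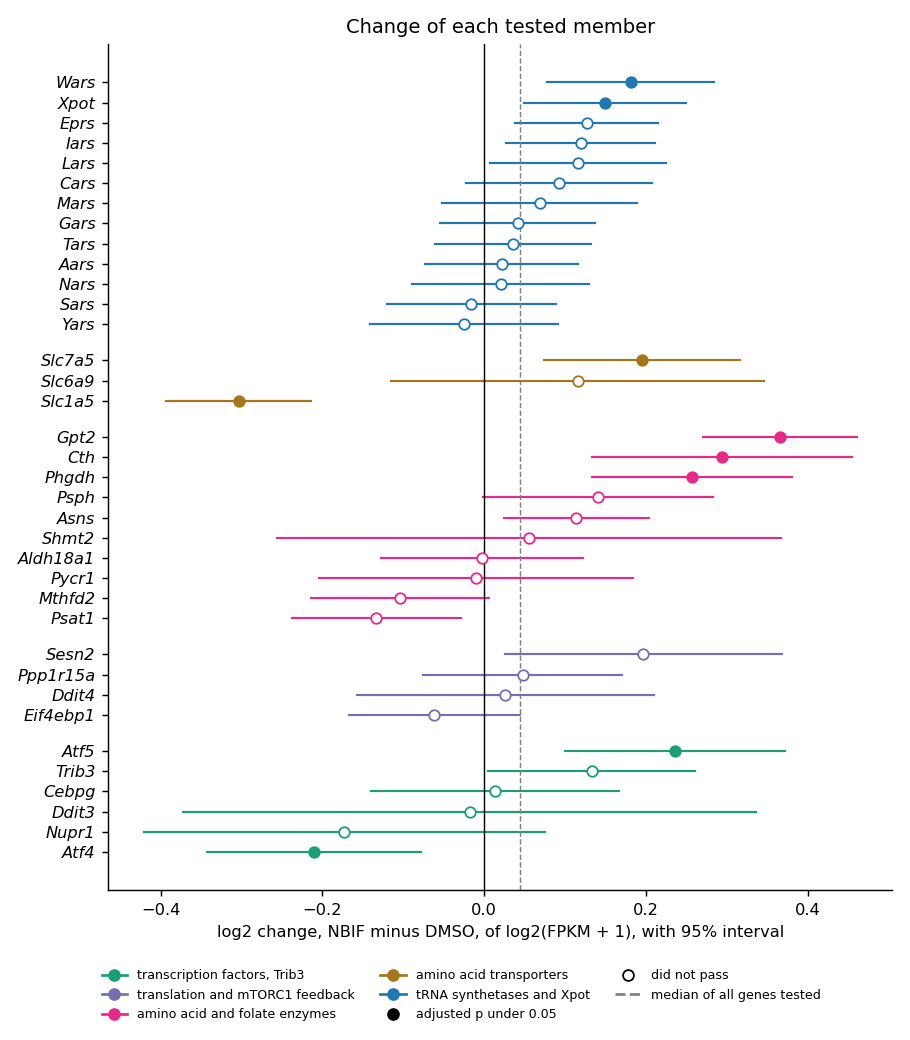
Log2 change (NBIF minus DMSO, on log2(FPKM + 1)) with its 95% interval for each of the 36 tested members, by role; filled points passed at an adjusted p under 0.05 and the dashed line is the median of all genes tested (0.044). Gpt2 at 0.37 and Slc1a5 at -0.30 stand at the ends, and the synthetases lie between -0.025 and 0.18.

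How firmly a call stood differed between members. Those of Gpt2 and Slc1a5 held under all 16 alternatives in scaling, filter, pseudocount, variance model, replicate block and samples. That of Phgdh was lost without DMSO 1 or NBIF 1 (adjusted p 0.0527 to 0.0554), and that of Cth without DMSO 1, NBIF 1, NBIF 2 or NBIF 3 (0.0575 to 0.0795). The fall of Atf4 missed the threshold without DMSO 1, DMSO 2, NBIF 2 or NBIF 3, without a filter and without a variance trend (0.0607 to 0.131). The rise of Atf5 missed it without any 1 sample other than DMSO 3 and after median-ratio scaling or quantile normalization (0.0544 to 0.0995). The rise of Slc7a5 missed it without DMSO 1, DMSO 2, NBIF 1 or NBIF 3, after median-ratio scaling, without a filter and without a variance trend (0.0631 to 0.127). The rise of Wars missed it without any 1 sample other than DMSO 3 and the rise of Xpot without any 1 sample, and both after median-ratio scaling and without a variance trend (0.0527 to 0.138). Without DMSO 1, DMSO 2 or DMSO 3 there were 1, 3 or 6 members higher and 1, 1 or 2 lower. Without NBIF 1, NBIF 2 or NBIF 3 there were 1, 3 or 2 higher and 2, 1 or 1 lower. In the same order of samples, 609, 771, 1066, 493, 583 and 597 of all genes tested were higher, in place of 1047. Those lower were 564, 668, 825, 506, 567 and 553, in place of 803. No change of a member that passed turned its sign in any of these alternatives.

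Genes next to the members in the pathway were taken from lists chosen with earlier results of these data known. Among 16 genes of the eIF2 kinases, eIF2, its exchange factor eIF2B and their partners, 2 rose and 0 fell. The rise of 12.5% of this list is near the 10.5% of all genes tested, of which 8.08% fell. Eif2ak3, which encodes the unfolded protein sensor PERK, had 10.1, 9.89 and 10.9 FPKM in DMSO and 13.6, 14.8 and 14.2 in NBIF. The groups stood apart by 0.43 ± 0.063 on the log2 scale (adjusted p = 0.00264). Eif2ak4, which encodes the amino acid sensor GCN2, had 42.9, 41.4 and 43.7 and 54.8, 54.1 and 49.4 FPKM, a log2 change of 0.30 ± 0.055 (adjusted p = 0.00757). Both calls held under all 16 alternatives. Eif2ak1 (HRI) had 10.9 ± 0.606 and 12.6 ± 0.127 FPKM, and Eif2ak2 (PKR) 6.47 ± 0.445 and 7.08 ± 0.297 FPKM (adjusted p = 0.0503 and 0.290).

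Of 17 tested genes among 20 further targets of ATF4, 2 rose, 3 fell and 12 did not pass (median log2 change 0.037). These are 11.8% and 17.6% of the list, beside 10.5% higher and 8.08% lower among all genes tested. Aldh1l2, a mitochondrial folate dehydrogenase gene, had 89.7, 87.7 and 85.0 FPKM in DMSO and 116, 117 and 118 in NBIF, and rose by 0.41 ± 0.043 on the log2 scale (adjusted p = 0.000473). Herpud1, a gene of endoplasmic reticulum degradation named here after its values were seen, rose by 0.23, a call lost without NBIF 1 or NBIF 2 (adjusted p 0.0526 to 0.0568). Slc7a11, the cystine importer subunit, had 54.1, 59.4 and 46.4 FPKM in DMSO and 35.0, 36.8 and 37.4 in NBIF, and fell to 0.683 of its DMSO mean (adjusted p = 0.00378). Cebpb, a C/EBP factor that serves macrophage genes and can pair with ATF4, fell from 37.7 ± 3.75 to 26.1 ± 1.90 FPKM, by -0.51 on the log2 scale (adjusted p = 0.00418). Jdp2, an AP-1 family repressor gene needed for osteoclast formation, had 229, 207 and 225 FPKM in DMSO and 157, 152 and 161 in NBIF, a log2 change of -0.49 (adjusted p = 0.000489). The calls of Aldh1l2, Slc7a11, Cebpb and Jdp2 held under all 16 alternatives. Promoter windows of Slc7a11, Jdp2 and Herpud1 held the letters TGATGNAAN, as did those of Chac1, Atf3, Fgf21 and Pck2, 7 of the 17 genes of this list with a window. The share was 4.50% of all 27025 genes with a window, and this list too was chosen as ATF4 targets.

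No synthetase gene outside the member list passed as lower, where 8.08% of all genes tested did. In lists of 8 other cytosolic and 17 mitochondrial genes, 0 lower lies close to that share. The genes that rose made 25% of the 8 and 11.8% of the 17, beside 10.5% of all genes tested. Of 8 other cytosolic synthetase genes, 2 rose and 0 fell, Qars (glutamine) by 0.21 ± 0.055 and Rars (arginine) by 0.17 ± 0.051 on the log2 scale (adjusted p = 0.0333 and 0.0458). Of 17 mitochondrial synthetase genes, 2 rose and 0 fell, and Cars2 was among those that rose, from 6.14 ± 1.12 to 8.62 ± 1.06 FPKM (adjusted p = 0.0434). The calls of Qars, Rars and Cars2 were lost after median-ratio scaling and without any one of DMSO 1, NBIF 1, NBIF 2 and NBIF 3, and also without DMSO 2 for Qars and Cars2 and without DMSO 3 for Rars (adjusted p up to 0.146). They were also lost after quantile normalization (Qars and Cars2), and without a filter or without a variance trend (Rars and Cars2), at adjusted p from 0.0511 to 0.110. The scaffold genes of the multisynthetase complex (Aimp1, Aimp2 and Eef1e1) did not pass, and 1 of the 3 had an unadjusted p under 0.05 (33.3% of all genes tested). Eef1e1 had 30.6 ± 2.11 and 30.0 ± 0.339 FPKM, and Aimp2 5.65 ± 0.193 and 6.45 ± 0.179 FPKM.

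**Figure D4:**
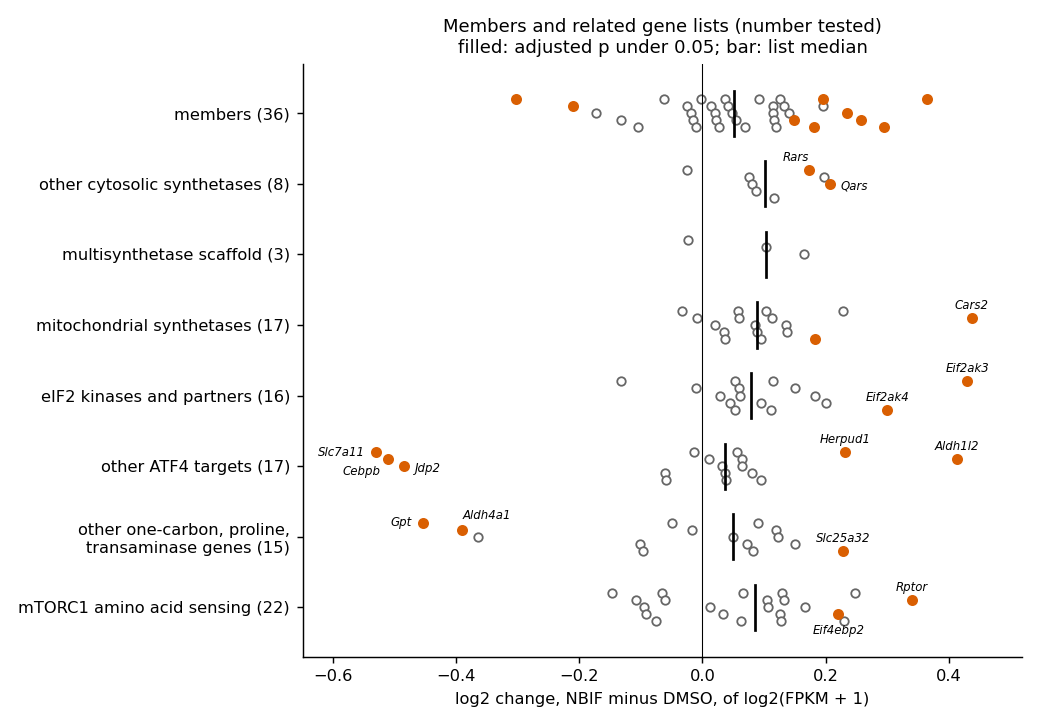
Log2 change (NBIF minus DMSO, on log2(FPKM + 1)) of each tested gene of the members and of 7 related lists; filled points passed at an adjusted p under 0.05 and bars are list medians. The list medians lie between 0.037 and 0.10, with the largest single changes in Slc7a11, Cebpb and Jdp2 (lower) and in Cars2, Eif2ak3 and Aldh1l2 (higher).

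For some members the spread between replicates was wider than the difference between the groups, and several genes were highest in the same replicate number. Ddit3 lay 0.32 above its group mean on the log2 scale in DMSO 2 and 0.21 above it in NBIF 2, and stood at -0.33 in DMSO 1. Nupr1 and, outside the member list, Chac1 (a glutathione-degrading target of CHOP and ATF4) and Atf3 were also highest in the second replicate of both groups, Chac1 by 0.17 and 0.25. Shmt2 and Slc6a9 were highest in the third replicate of both groups, Shmt2 by 0.31 and 0.22. Pycr1 was at 0.19 in DMSO 3, while its NBIF values lay between -0.067 and 0.036. These genes were chosen for this description after their values were seen, and the share of all genes with such a match was not counted. With 3 replicates a group a match can also arise by chance, and whether these go beyond that was not tested.

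**Figure D5:**
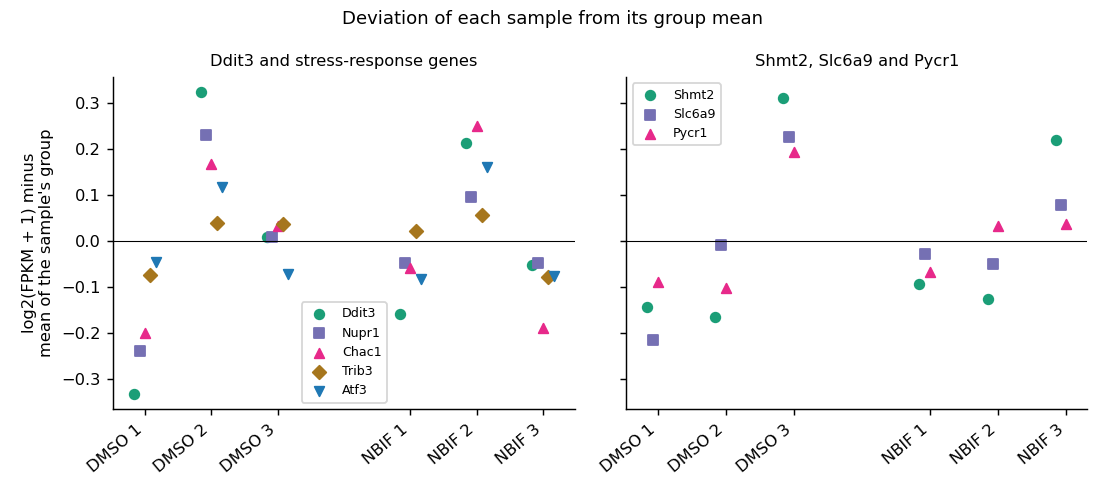
Deviation of log2(FPKM + 1) in each sample from the mean of its group, for Ddit3, Nupr1, Chac1, Trib3 and Atf3 (left) and for Shmt2, Slc6a9 and Pycr1 (right). Ddit3 reaches 0.32 in DMSO 2 and 0.21 in NBIF 2, and Shmt2 reaches 0.31 in DMSO 3 and 0.22 in NBIF 3.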

How the data were processed

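RNA was sequenced from 6 samples of RAW264.7 cells, 3 per group, and groups and replicate numbers were taken from the labels. The authors deposited FPKM per gene for all samples in a single table; the tools named, with no role or order, are DESeq2 1.20.0, featureCounts 1.5.0-p3, fastp, CASAVA 1.8 and HISAT2 2.0.5, per the submitters' processing notes. Those notes name a human build although the deposited symbols are mouse, so the build behind the FPKM is uncertain. The sources used here give neither strand setting nor read totals.

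The 9936 of 20938 genes whose mean reached 1 FPKM entered a limma fit (version 3.58.1, R 4.3.3) of log2(FPKM + 1) with a variance trend. Tests were two-sided, p-values were adjusted over these genes by the Benjamini-Hochberg method, and 0.05 was the threshold. For low genes the pseudocount of 1 shrinks a fold change. Members and lists were chosen with earlier results of these data known. Values per sample are given for members that passed and for Atf4, Ddit3, Asns, Trib3, Atf5, Slc7a5 and Psat1; from each other list, up to 4 passing genes with the largest change are named, or the 2 highest where none passed. Some items are not reported here. The 16 alternatives changed pseudocount, filter, scaling, variance model, replicate block or samples. Promoter sequences are from RefSeq (GRCm38.p6) and gene positions from GENCODE M21 (GRCm38).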

Additional observations from a re-analysis of the deposited data

How the results depend on the processing

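Over the 16 alternatives, no call of a named gene reversed. The 7 members higher became 3 after median-ratio scaling and 4 without a variance trend, and the 2 lower became 1 without a filter on low values and 1 without a variance trend. Leaving out 1 sample gave 1 to 6 members higher and 1 to 2 lower, and 999 to 1891 genes called of all tested in place of 1850; the cause was not tested beyond the smaller number of samples. Quantile normalization made 46.9% of all called genes higher in place of 56.6%. Low values are limited by depth, and with 3 samples a group an exact permutation test of a single gene could not go below 0.1.

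Same-numbered samples were not taken as pairs, since their deviations from the group means correlated at 0.0784, 0.126 and 0.0355 over all genes tested. With the replicate number as a block, 5 members were higher and 2 lower, and 1632 genes were called in all. Calls lost there were those of Xpot (adjusted p 0.0887) and Wars (0.0527) among the members, and of Qars (0.0580), Rars (0.0737) and Slc25a32 (0.0824) among the other genes named. Over the 36 tested members alone these correlations were 0.466, 0.635 and 0.398, each sample there correlating best with its own number, which is a hint from the data and not from the design.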

Other observations

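Among 22 tested genes of mTORC1 and its amino acid sensing, of 25 listed, 2 were higher with NBIF, 0 were lower and 20 did not pass (limma, adjusted over all genes tested). The 9.09% higher is near the 10.5% of all genes tested, of which 8.08% were lower. Rptor, the scaffold subunit that recruits mTORC1 substrates, had 14.0, 14.6 and 16.1 FPKM in DMSO and 19.3, 19.7 and 18.2 in NBIF. All NBIF values were the higher ones, by 0.34 ± 0.067 on the log2 scale (adjusted p = 0.00988), and the call held under all 16 alternatives. Eif4ebp2, a relative of the member Eif4ebp1 that also blocks eIF4E, had 64.4 ± 2.44 and 75.3 ± 4.61 FPKM (mean ± SD, n = 3; adjusted p = 0.0308), a call lost in 7 of the 16.

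Of 15 tested genes of one-carbon and proline metabolism outside the member list, of 17 listed, 1 was higher and 2 were lower. These are 6.67% and 13.3% of the list, beside 10.5% and 8.08% of all genes tested. Gpt, the cytosolic counterpart of the alanine transaminase Gpt2, had 4.86, 4.60 and 5.64 FPKM in DMSO and 3.31, 4.17 and 2.79 in NBIF. It was lower, by -0.45 ± 0.12 on the log2 scale (adjusted p = 0.0316), where Gpt2 was higher, and its call was lost in 5 of the 15 alternatives that tested it. Aldh4a1, a mitochondrial proline catabolism enzyme gene, had 25.1 ± 2.78 and 18.8 ± 0.947 FPKM, at -0.39 on the log2 scale (adjusted p = 0.0127), a call held under all 16. Slc25a32, the mitochondrial folate carrier, had 4.91 ± 0.128 and 5.93 ± 0.375 FPKM, at 0.23 on the log2 scale (adjusted p = 0.0494), a call lost in 11.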
